A study of Mus musculus with 4 samples.

Results

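Progression through the G1 phase of the cell cycle is set by D-type cyclins, their kinase partners and the inhibitors that bind them, and 9 genes of this machinery were followed through luminal cells of the mouse mammary gland. They comprised the D-type cyclins Ccnd1, Ccnd2 and Ccnd3, the kinases Cdk4 and Cdk6, the CIP/KIP inhibitors Cdkn1a, Cdkn1b and Cdkn1c (p21, p27 and p57), and the INK4 inhibitor Cdkn2c (p18). The genes were picked by symbol, as the 9 rows of the expression table that carry these names among 52636 gene rows.

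Growth factor, hormone and adhesion signals raise the amount of D-type cyclin in a cell, and the cyclin binds CDK4 or CDK6 to phosphorylate the retinoblastoma protein and release E2F transcription factors. INK4 proteins bind CDK4 and CDK6 and keep them from the cyclins, whereas CIP/KIP proteins bind cyclin and kinase complexes and mainly block CDK2. In the mammary gland cyclin D1 is known for its requirement in the growth of the milk-producing lobules, and ERBB receptor signalling is among its known inputs.

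The study sequenced RNA of sorted luminal epithelial cells from C57BL/6N females aged 6 weeks, by droplet-based single cell RNA-sequencing, in which each captured molecule carries a unique molecular identifier (UMI). WT cells came from ErbB3+/+;MMTV-Cre glands, and V943R cells came from glands of ErbB3V943R/V943R;MMTV-Cre animals, whose ERBB3 receptor has a substitution that impairs its ability to activate partner receptors. Both groups carried MMTV-Cre, which drives recombination mainly in mammary epithelium, and before recombination the knock-in allele expresses wild-type ERBB3, so that a cell without recombination would count as V943R here. Thoracic and abdominal glands of 3 mice were pooled for each genotype, and each pool was sequenced as 2 libraries, called A and B below. The letters are names within a genotype, and A or B of WT has no known link to A or B of V943R.

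The 2 libraries of a genotype share 1 pool of animals, so each genotype was 1 biological sample and no test between genotypes was possible. WT libraries held 18638 cells and V943R libraries 13801 cells, with 30019745 to 38009351 UMIs per library and a median of 3154 to 4027 UMIs per cell. All intervals given are 95% intervals of counting error alone, exact Poisson for a level, exact binomial for a share and for a ratio. A level is the number of UMIs of a gene per 1000000 UMIs of the same cells (UPM), and since the kit counts 1 end of each molecule, no correction for gene length was needed when genes were compared. Deposited labels divided the cells into 13 clusters, of which 1 and 2 were luminal progenitor (LP, 6304 cells), 3 was luminal intermediate (LI, 2095 cells), 4 to 11 were mature luminal (ML, 23800 cells) and 12 and 13 were rare (240 cells). Progenitor markers (Kit, Elf5, Cd14, Aldh1a3 and Csn3) summed to 3973.3 UPM in LP, 1139.7 in LI and 73.0 in ML cells, and mature markers (Prlr, Esr1, Pgr, Cited1 and Ly6a) to 619, 3272.5 and 4520.0, in the order of the names. Among LI cells 48.9% were in the 6% of cells with the highest doublet score, and the part of doublets in LI values was not tested. Of the barcodes, 511 occurred in more than 1 library, and each was kept as a separate cell.

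Promoter sequences are shown for 3 members, Cdk4, Cdkn2c and Cdk6, from 250 bases before to 50 bases after the start site (RefSeq, GRCm38.p6, 5′ to 3′ on the strand of the gene). Capitals mark the E-box CACGTG, to which MYC and related factors bind, in Cdk4 and Cdk6, and the E2F core TTCCCGC in Cdkn2c. The motifs were chosen after the windows of the members had been read, and the windows shown were chosen with their matches and the levels below known. Ccnd3, called higher in both sets of cycling clusters as Cdk4 and Cdkn2c were, is not shown and had neither motif.
Cdk4, chr10:127063285-127063584, + strand: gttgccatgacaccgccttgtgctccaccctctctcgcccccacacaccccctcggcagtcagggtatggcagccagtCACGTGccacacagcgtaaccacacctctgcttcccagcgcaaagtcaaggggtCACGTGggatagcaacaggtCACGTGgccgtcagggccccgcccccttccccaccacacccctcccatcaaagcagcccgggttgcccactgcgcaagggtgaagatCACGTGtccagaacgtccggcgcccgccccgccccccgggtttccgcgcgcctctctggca
Cdkn2c, chr4:109666707-109667006, - strand: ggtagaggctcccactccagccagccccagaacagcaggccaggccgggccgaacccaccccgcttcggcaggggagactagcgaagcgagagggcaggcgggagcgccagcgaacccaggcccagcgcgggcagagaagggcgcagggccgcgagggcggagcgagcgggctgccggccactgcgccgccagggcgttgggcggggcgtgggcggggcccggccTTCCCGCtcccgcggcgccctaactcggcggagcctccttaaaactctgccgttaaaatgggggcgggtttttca
Cdk6, chr5:3343643-3343942, + strand: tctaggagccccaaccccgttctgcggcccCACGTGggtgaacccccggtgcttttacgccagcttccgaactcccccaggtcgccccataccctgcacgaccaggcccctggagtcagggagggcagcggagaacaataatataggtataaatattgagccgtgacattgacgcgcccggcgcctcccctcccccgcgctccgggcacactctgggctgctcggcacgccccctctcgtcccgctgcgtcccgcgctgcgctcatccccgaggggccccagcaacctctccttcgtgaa

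The window of Cdk4 held 4 E-boxes, whose first bases lay 172, 118, 98 and 11 bases before the start site. At least 4 E-boxes occurred in 8 of 32851 windows of all genes (0.0244%), and at least 1 in 7.15%. Cdk6 held 1 E-box, 220 bases before its start site, together with a TATAAA 103 bases before it, a motif of 13.6% of windows. Cdkn2c held 1 E2F core, 25 bases before the start site, against 4.6% of windows, and 4 GC boxes (GGGCGG, 35.7% of windows). Both strands were searched, different motifs did not overlap in the members' windows, and of the 9 members 6 had a window (9 windows in all). In the windows of Cdkn1a, Cdkn1b and Ccnd3 no motif other than the GC box matched, and Ccnd1, Ccnd2 and Cdkn1c had no entry in the sequence table. A second Cdkn2c window held 1 E-box 35 bases after its start. The p53 response element, as its full consensus without a spacer, was searched as well and matched no window of a member, against 3 of 32851 windows (0.00913%). Such matches describe the letters only and are no measure of binding.

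Ccnd1 (ENSMUSG00000070348, chr7:144929931-144939925, GENCODE vM21) supplied most of the D-type cyclin message in these cells. Of 78006 D-type cyclin UMIs, Ccnd1 made up 88.0% (87.8 to 88.2, 87.2 to 88.6 across libraries), Ccnd3 11.7% and Ccnd2 0.240%. Cdk4 accounted for 95.3% of the UMIs of the 2 kinases and Cdk6 for 4.73%. Among the inhibitors that are members, Cdkn1a, the p53-responsive p21, led with 73.4% of 43169 UMIs, ahead of Cdkn2c (13.9%), Cdkn1b (12.1%) and Cdkn1c (0.547%). Shares of inhibitor UMIs, here and below, count these members only and leave out other inhibitors such as the INK4 gene Cdkn2d. The other D-type cyclins were Ccnd2 (ENSMUSG00000000184, chr6:127125162-127152193) and Ccnd3 (ENSMUSG00000034165, chr17:47505051-47599691), and the kinases Cdk4 (ENSMUSG00000006728, chr10:127063534-127067920) and Cdk6 (ENSMUSG00000040274, chr5:3341485-3531008). The inhibitors were Cdkn1a (ENSMUSG00000023067, chr17:29090976-29100727), Cdkn1b (ENSMUSG00000003031, chr6:134920401-134925513), Cdkn1c (ENSMUSG00000037664, chr7:143458339-143461050) and Cdkn2c (ENSMUSG00000028551, chr4:109660876-109667189).

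To compare how many cells showed each gene, every cell was thinned to 1000 UMIs, which left out 297 shallower cells of 32439. Ccnd1 was then seen in 33.1% of cells (32.6 to 33.7), Cdk4 in 27.3% and Cdkn1a in 16.8%. The other members were each seen in under 10% of cells, from 5.86% for Ccnd3, 4.13% for Cdkn2c, 4.12% for Cdkn1b and 2.15% for Cdk6 down to 0.212% for Cdkn1c and 0.143% for Ccnd2. Without thinning the shares were 65.2% for Ccnd1, 64.2% for Cdk4, 41.4% for Cdkn1a, 21.9% for Ccnd3, 15.4% for Cdkn2c, 13.8% for Cdkn1b, 5.94% for Cdk6, 0.684% for Cdkn1c and 0.358% for Ccnd2. None of the classes is known to lack these genes, so no share could serve as the background of free RNA.

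**Figure D1:**
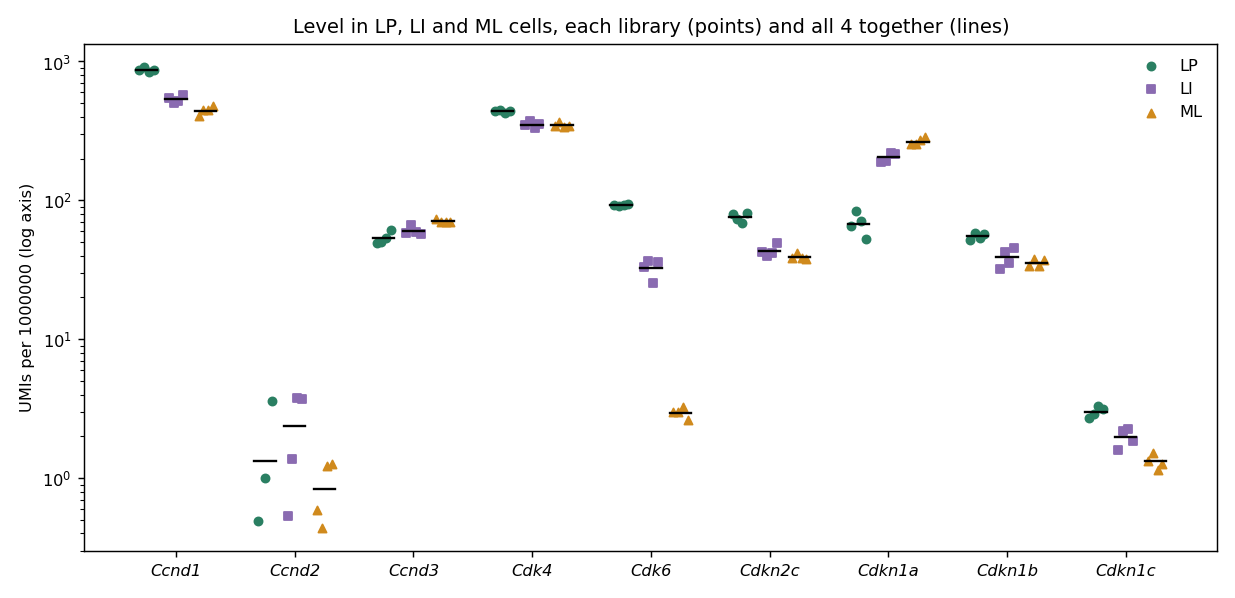
Level of each member in UMIs per 1000000 (UPM, log axis) in LP, LI and ML cells. Points are the 4 libraries and black lines the value over all of them. The point at 0 (Ccnd2, WT library B, LP cells) is not drawn. Cdk6 falls from 92.5 in LP to 2.96 in ML cells, and Cdkn1a lies lower in LP than in ML cells in every library.

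Progenitor and mature luminal cells differed in a kinase, a cyclin and the inhibitors. Cdk6 was 31.3-fold higher in LP than in ML cells, Cdkn1c was 2.28-fold, Ccnd1 1.97-fold, Cdkn2c 1.93-fold and Cdkn1b 1.55-fold higher, and Cdkn1a was 3.91-fold lower. A gene was called different when it reached a fold of 1.5 with at least 50 UMIs in the group with more and the same direction in all 4 libraries. By that rule 5 of the 9 members were higher in LP and 1 was lower, against 24.7% of 17024 genes called higher and 15.0% called lower. The clusters were made from the same expression values, so these differences describe the classes and were not tested. Markers of other cell types moved with them, 3 of 5 basal genes (Krt14, Acta2 and Oxtr) and 2 of 5 immune genes (Cd74 and Lyz2) being called higher in LP. Of the endothelial and fibroblast genes compared, 1 of 2 each was called lower in LP, their lists summing to 8.78 and 1.98 UPM in LP and 29.3 and 10.1 in ML cells. The basal list summed to 40.9 to 52.9 UPM in LP and 13.2 to 17.0 in ML libraries and the immune list to 8.03 to 15.9 and at most 5.84, with Cd3e at 0 and Ptprc at 1 UMI in LP cells, and their part in the result was not tested.

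Among the cyclins, Ccnd1 in LP cells stood at 867 and 912 UPM in WT libraries A and B and at 841 and 861 in V943R libraries A and B. ML cells had 406, 444, 450 and 475 in the same order, so that the lowest LP library was above the highest ML library. The log2 difference was 0.98 (0.95 to 1.00, 0.86 to 1.09 across libraries), and LI cells lay between at 502 to 577. Ccnd3, a cyclin best known from lymphocytes and other differentiating cells, had the opposite order. Its level was 49.6, 50.4, 53.7 and 61.5 in LP and 73.1, 69.9, 70.0 and 69.8 in ML cells, a log2 difference of -0.39 (-0.49 to -0.29) that was short of the fold. The share of Ccnd1 among D-type cyclin UMIs was 94.0% in LP (93.6 to 94.4) and 86.1% in ML cells (85.8 to 86.4). Ccnd2 had 23 UMIs in LP and 86 in ML cells and showed no common direction across libraries.

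For the kinases, Cdk6 set the classes apart and Cdk4 hardly did. Cdk6 in LP cells was at 92.7, 91.4, 92.4 and 93.5 UPM and in ML cells at 2.98, 3.00, 3.24 and 2.61 (WT A, WT B, V943R A, V943R B), with no overlap and a log2 difference of 4.97 (4.79 to 5.15). LI cells had 25.6 to 36.9. Cdk4, a main partner of cyclin D1, was at 441, 449, 429 and 440 in LP and 343, 369, 335 and 342 in ML cells. That difference, 0.34 on the log2 scale (0.30 to 0.37), was below the fold although the libraries did not overlap. Cdk6 thus made up 17.4% of the UMIs of both kinases in LP (16.6 to 18.2), 8.55% in LI and 0.842% in ML cells (0.750 to 0.942). In cells thinned to 1000 UMIs, a Cdk6 UMI was found in 8.87% of LP, 3.30% of LI and 0.299% of ML cells, and in unthinned cells in 19.4%, 18.6% and 1.21%, at median depths of 2039, 6192 and 3730 UMIs.

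Inhibitors of the CIP/KIP and INK4 families were divided between the classes. Cdkn1a was at 64.9, 84.3, 70.6 and 52.4 UPM in LP and at 255, 254, 272 and 285 in ML cells, a log2 difference of -1.97 (-2.05 to -1.88) with ranges far apart, and LI cells had 190 to 218. Cdkn2c, the INK4 protein p18, was higher in LP, at 79.8, 73.4, 68.8 and 80.8 against 38.2, 41.8, 38.5 and 38.0 (log2 0.95, 0.86 to 1.04). Of its 1305 LP UMIs 597 lay in cluster 2, the cycling LP cluster described below, at 149. Cluster 1 was at 53.6, within the range of the ML clusters (20.3 to 62.9). Cdkn1b, which encodes p27 and is regulated largely at the protein level, was at 52.0 to 58.0 in LP and 33.5 to 38.1 in ML libraries (log2 0.63, 0.53 to 0.73). The imprinted gene Cdkn1c was scarce in both, with 52 UMIs in LP and 136 in ML cells, or 3.02 and 1.33 UPM (log2 1.19, 0.70 to 1.66). Cdkn1a took 77.7% of inhibitor UMIs in ML (77.2 to 78.1) and 33.6% in LP cells (32.0 to 35.2), where Cdkn2c with 37.6% and Cdkn1b with 27.4% stood at its side, and LI cells had 70.8% Cdkn1a.

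Scaling moved the zero of this comparison. With scaling by a trimmed mean of log ratios (TMM) in place of the total, every LP over ML log2 value fell by 0.31, and the calls over all genes went from 4208 higher and 2554 lower to 2645 higher and 3973 lower, from 62.2% to 40.0% higher. Relative to that zero Ccnd1 (0.67), Cdk6 (4.66), Cdkn2c (0.64), Cdkn1c (0.88) and Cdkn1a (-2.27) were still called, Cdkn1b (0.32) was not, Ccnd3 (-0.70) was called lower, and Cdk4 came to 0.03.

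**Figure D2:**
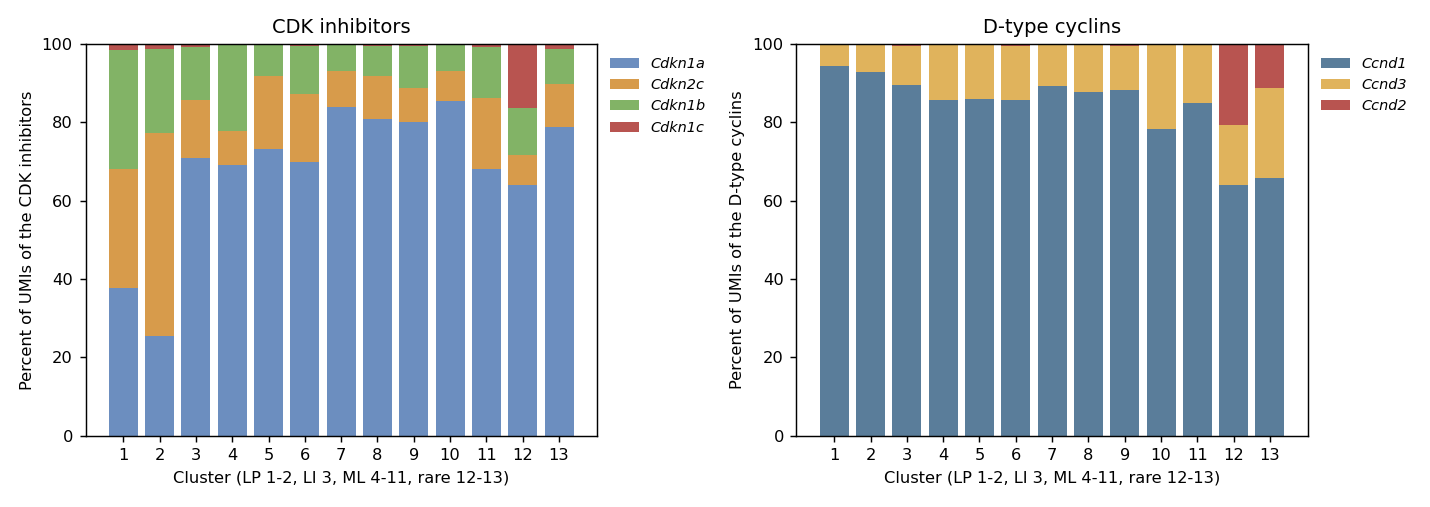
Percent of the UMIs of the 4 CDK inhibitors (left) and of the 3 D-type cyclins (right) that came from each gene, by cluster, over all 4 libraries. Cdkn1a takes 37.6% and 25.5% of inhibitor UMIs in LP clusters 1 and 2 and 68.1% to 85.4% in the ML clusters, and Cdkn2c reaches 51.9% in cluster 2. Among the luminal clusters Ccnd1 is lowest in cluster 10, at 78.2% of cyclin UMIs, and it is lower still in the rare clusters 12 and 13.

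Genes that act with the members differed in the same comparison. Of 13 pocket protein and E2F genes 6 were higher in LP and none was lower, led by Rb1, the retinoblastoma protein (46.8 against 7.16 UPM, 6.53-fold), E2f8 (3.51-fold), E2f7 (3.45-fold) and E2f1 (2.42-fold). Of the 3 other INK4 genes, Cdkn2a and Cdkn2b were 4.75- and 5.67-fold lower in LP, opposite to Cdkn2c, and Cdkn2d was not called (41.9 against 56.5). Of 12 p53 target genes 8 were lower in LP and none was higher, among them Eda2r (7.14-fold), Plk2 (4.27-fold), Zmat3 (3.84-fold) and Ccng1 (2.59-fold). The median log2 difference of the p53 targets was -1.05, of the pocket protein and E2F list 0.54, and of all genes tested 0.19.

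Genes that feed into D-type cyclin transcription were 5 of 15 higher and 6 lower in LP, where 24.7% of all genes were called higher and 15.0% lower, and the lists below stand against the same shares. Egfr, the receptor of epidermal growth factor, was at 15.1 against 0.244 (61.7-fold), Tnfrsf11a, the RANKL receptor, at 13.2 against 0.732 (18.0-fold) and Myc at 46.5 against 16.6 (2.81-fold), whereas the EGFR ligand Areg (10.4-fold), the hormone receptors Pgr (8.31-fold) and Prlr (8.18-fold) and Wnt4 (5.10-fold) were lower in LP. Prlr, Esr1 and Pgr were also among the mature markers that check the class names. FOXO factors raise Cdkn1b transcription, and of 5 genes of that list Foxo1 (6.20-fold), Klf9 (2.39-fold) and Foxo4 (1.88-fold) were higher and Sgk1 (2.05-fold) lower. Of the E- and A-type cyclin and kinase genes 3 of 5 were higher in LP, Ccna2 by 2.93-fold, Cdk1 by 1.94-fold and Ccne2 by 1.88-fold, and in the list of turnover and activation genes 3 of 9 were, Fbxw7 by 2.86-fold, Skp2 by 2.08-fold and Cks1b by 1.63-fold. Of 16 S phase and mitosis genes 15 were higher, and of 10 dissociation stress genes 4 were higher and 2 lower, with Fos at 9465.1 against 6137.9. In the list of imprinted genes 3 of 7 were higher, Peg3 (18.4-fold), Grb10 (15.8-fold) and Plagl1 (2.82-fold), and 3 lower, H19 (3.73-fold), Slc22a18 (3.07-fold) and Phlda2 (2.36-fold). With TMM scaling Cks1b (0.40) and Fos (0.32) were no longer called and Cdkn2d (-0.74) was called lower. The basal marker Acta2 and the immune marker Cd74 were no longer called either. The counts of genes called higher then became 4 of 13 for pocket proteins and E2F, 3 of 15 for inputs, 2 of 9 for turnover, 12 of 16 for S phase and mitosis and 2 of 10 for stress, with 3 of 3 INK4 and 3 of 10 stress genes lower. No call named here changed direction.

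**Figure D3:**
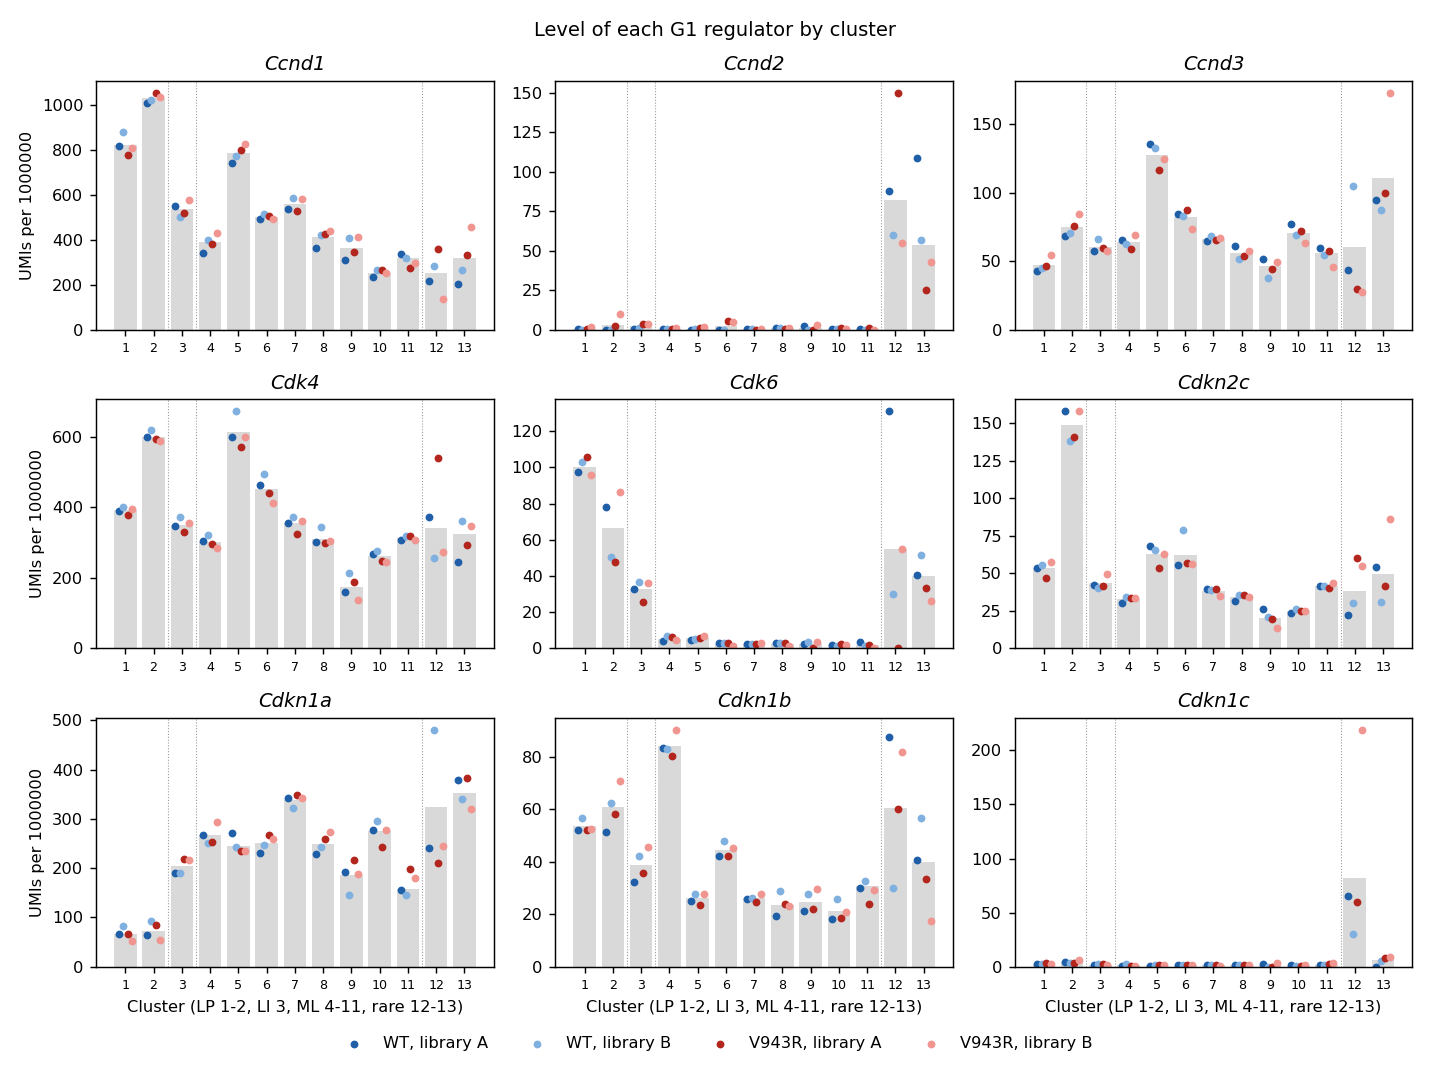
Level of each member in UPM in the 13 clusters. Grey bars are the value over all libraries, points the 4 libraries, and the clusters are LP (1 and 2), LI (3), ML (4 to 11) and rare (12 and 13). Ccnd1 is highest in cluster 2 at 1029.9, Cdkn1b in cluster 4 at 84.2, and Ccnd2 and Cdkn1c in cluster 12 at 82.4 each.

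Within the classes the members were ordered differently by cluster. Ccnd1 ran from 1029.9 UPM in cluster 2 over 823 in cluster 1 and 785 in cluster 5 to 255 in cluster 10 and 253 in cluster 12, which overlapped, with clusters 1 and 5 also overlapping between libraries and cluster 2 above every other. Ccnd3 was highest in cluster 5 (128, libraries 117 to 136), which overlapped the rare cluster 13 (111, libraries 87.6 to 173). Cdk4 was highest in clusters 5 and 2 (614 and 600), which overlapped. Cdkn1a in the ML clusters ran from 339 in cluster 7 to 158 in cluster 11, and both LP clusters (66.2 and 73.3) were below every other cluster. In ML clusters Cdk6 stayed between 1.77 and 5.43, with clusters 5 and 4 above the rest. Cluster 10 had the lowest share of Ccnd1 among the luminal clusters, 78.2% of D-type cyclin UMIs (77.1 to 79.2), beside the highest share of Cdkn1a among inhibitor UMIs of any cluster, 85.4% (84.5 to 86.3).

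Cdkn1b marked cluster 4 among the mature cells. It was at 83.3 and 83.1 UPM in WT libraries A and B and at 80.2 and 90.4 in V943R libraries A and B, against 27.6 (26.5 to 28.7) over the other ML clusters, which ran from 21.1 to 44.4. Of the inhibitor UMIs in cluster 4, 21.9% were Cdkn1b, and in ML cells as a whole 10.5%. Mki67, a marker of dividing cells, was at 4.69 in cluster 4 and Ccne1 at 6.32.

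Ccnd2 and Cdkn1c, the scarcest members, had their highest levels per cluster among the rare cells, Ccnd2 in clusters 12 and 13 and Cdkn1c in cluster 12, although 145 of 187 Ccnd2 UMIs and 218 of 236 Cdkn1c UMIs lay in clusters 1 to 11. In cluster 12 (76 cells) Ccnd2 was at 87.6, 60.1, 150 and 54.8 UPM and Cdkn1c at 65.7, 30.0, 60.1 and 219, from 15 UMIs each. Cluster 13 (164 cells) had Ccnd2 at 109, 56.7, 25.1 and 43.2 from 27 UMIs, whereas Cdkn1c, from 3 UMIs, overlapped cluster 2 between libraries. Over all libraries, no luminal cluster had more than 3.25 UPM of Ccnd2 or 4.25 of Cdkn1c, and in single libraries cluster 2 reached 10.1 and 6.44 (V943R library B). In that library 1 cell held 10 of the 13 Ccnd2 UMIs that cluster 2 had over all libraries. Cluster 12 carried fibroblast markers (Col1a1, Col1a2, Col3a1 and Dcn) at 7691.0 and endothelial markers (Pecam1, Cdh5, Cldn5 and Egfl7) at 3411.5 UPM, against 10.1 and 29.3 in ML cells, with none of the 8 genes at 0. Its luminal markers summed to 5795.7, against 24473.2 in ML cells, with 8433.6 and 8173.0 in the WT and 1531.5 and 2053.7 in the V943R libraries of cluster 12. Meg3, an imprinted non-coding RNA, was at 731 there. Immune markers in cluster 13 summed to 16271.1, with 1 of 5 at 0. Whether free RNA or mixed droplets took part in these values was not tested.

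Cycling cells were compared next, as the deposited clusters allow. Cluster 2 is the LP cluster rich in Mki67 (255 UPM against 17.4 in cluster 1), and clusters 5 and 6 are those of the ML class (118 against 4.27 in clusters 4, 7, 8, 9 and 10). Cdkn2c had the largest called fold among the members in both, at 2.79-fold in cluster 2 and 1.92-fold in clusters 5 and 6. Cdk4 and Ccnd3 were also called higher in both. Ccnd1 was higher in all 4 libraries in both, by 0.32 on the log2 scale in cluster 2, short of the fold, and by 0.59 in clusters 5 and 6, where it was called, and the difference between the classes was not tested. Cdkn1a and Cdkn1b were called in neither. Of the 9 members 3 were higher and 1 lower in cluster 2, against 9.73% and 9.46% of 12082 genes, and 4 were higher and none lower in clusters 5 and 6, against 12.4% and 7.38% of 15641 genes. The shares count only genes with at least 50 UMIs in the group with more. Ccnd2 fell short of that in both comparisons, and Cdkn1c in cluster 2 against cluster 1.

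In the progenitors, Cdkn2c was at 158, 138, 141 and 158 UPM in cluster 2 and at 53.5, 55.3, 46.9 and 57.7 in cluster 1 (WT A, WT B, V943R A, V943R B). The libraries were far apart, with a log2 difference of 1.48 (1.32 to 1.64). Cdkn2c made up 51.9% of the UMIs of the member inhibitors in cluster 2 against 30.5% in cluster 1. Cdkn2d, left out of these shares, was also higher in cluster 2, as given below. Cdk4 was at 600 against 392 (1.53-fold, libraries 588 to 620 against 379 to 402) and Ccnd3 at 75.1 against 47.6 (1.58-fold), and neither was called without the 10% of cells with the fewest UMIs (log2 0.51 and 0.58). Ccnd1 differed by less than the fold, at 1029.9 against 823 (log2 0.32, 0.27 to 0.37). Cdk6 was the member lower in the cycling progenitors, 66.6 against 100 (1.51-fold, log2 -0.59, -0.79 to -0.40). That difference was uneven, since V943R library B had 86.4 and WT library A 78.3 in cluster 2, and WT library B and V943R library A had 50.2 and 47.6. The call was lost under 6 of 9 alternatives, without WT library B (-0.47), without V943R library A (-0.45), with the mean over cells (-0.51), and without the cells of fewest UMIs (-0.58), of most UMIs (-0.47) or of the highest doublet scores (-0.56).

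In the mature cells, Cdk4 was at 522 against 307 UPM (1.70-fold, log2 0.76, 0.73 to 0.80), Ccnd3 at 102 against 64.7 (1.57-fold), Ccnd1 at 624 against 413 (1.51-fold, log2 0.59, 0.56 to 0.62) and Cdkn2c at 62.5 against 32.5 (log2 0.94, 0.84 to 1.04). Each was higher in every library. The value of Ccnd1 lay at the fold itself, and its call was lost without WT library A (0.56). Cdkn1a was at 249 against 288 (log2 -0.21, -0.25 to -0.16) and Cdkn1b at 36.6 against 36.4. The pair was not uniform. Ccnd1 was at 785 in cluster 5 and 504 in cluster 6, Ccnd3 at 128 and 82.1, and Cdk4 at 614 and 453, in each case with no overlap of libraries, while Cdkn2c was nearly level at 62.9 and 62.3. Ccne1, the cyclin of the next step into S phase, was at 98.6 in cluster 5 and 15.0 in cluster 6, and Mki67 at 61.9 and 161.

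**Figure D4:**
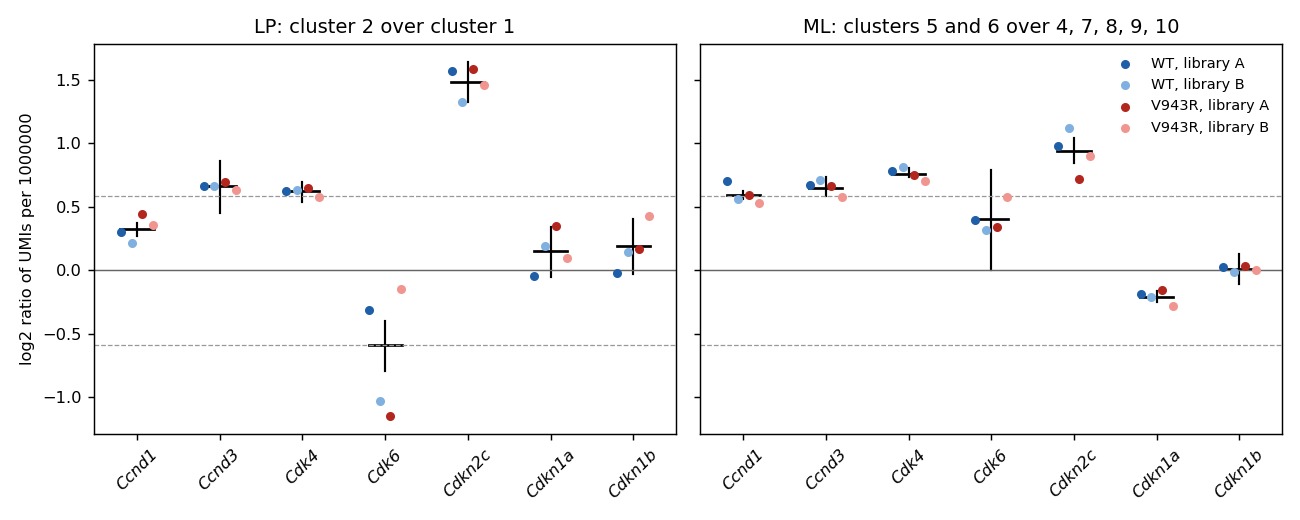
Log2 ratio of the level in cycling over non-cycling clusters, for LP cells (left) and ML cells (right). Coloured points are the 4 libraries, horizontal bars the value over all of them, vertical bars the 95% counting interval, and dashed lines a fold of 1.5. Ccnd2 and Cdkn1c are left out for few UMIs. Cdkn2c is highest on both sides, at 1.48 and 0.94.

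Cells of the cycling clusters were also divided by whether they held a Mki67 UMI. Cdkn2c was higher in cells with Mki67 in clusters 5 (81.7 against 55.2 UPM, log2 0.57, 0.30 to 0.83) and 6 (73.0 against 45.9, log2 0.67, 0.43 to 0.91), in all 4 libraries, and in cluster 2 the interval held 0 (155 against 140, log2 0.15, -0.10 to 0.40). Cdkn1a was higher in cells with Mki67 in all 4 libraries in cluster 2 (81.8 against 57.9, log2 0.50, 0.12 to 0.89) and in cluster 5 (274 against 235, log2 0.22, 0.08 to 0.35), and in cluster 6 its interval held 0 (log2 0.04, -0.07 to 0.15). Cdk4 was higher in all 4 libraries in cluster 6 (480 against 413, log2 0.22, 0.13 to 0.30). Ccnd1 went the other way in cluster 5, at 659 against 836 (log2 -0.34, -0.43 to -0.26), and its log2 difference was 0.11 in cluster 2 (-0.05 to 0.25 across libraries) and 0.13 in cluster 6 (0.05 to 0.25). Cdk6 in cluster 2 was lower in cells with Mki67 in all 4 libraries, at 61.2 against 76.2, with an interval that held 0 (log2 -0.32, -0.68 to 0.05). For Ccnd3 the intervals held 0 in clusters 2, 5 and 6 (log2 -0.32, 0.14 and 0.13). Cells with a Mki67 UMI were deeper, with medians of 4268, 6370 and 6386 UMIs against 2983, 4958.5 and 4035.5 in clusters 2, 5 and 6, and the part of depth in these values was not tested.

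Partners in the cell cycle moved in the same clusters. Over all genes 9.73% were called higher and 9.46% lower in cluster 2, and 12.4% and 7.38% in clusters 5 and 6. The clusters were made from the same expression values and called cycling by Mki67, itself a gene of the S phase and mitosis list. These counts and those of the members therefore describe the clusters and were not tested. All 5 E- and A-type cyclin and kinase genes were higher in both comparisons, with Ccna2 at 227 against 10.5 in cluster 2 and 102 against 1.74 in clusters 5 and 6, and 15 and 16 of the 16 S phase and mitosis genes. Cdkn2d, the INK4 protein p19, was higher along with Cdkn2c, by 6.44-fold in cluster 2 (119 against 18.5) and by 3.16-fold in clusters 5 and 6 (125 against 39.4), and Cdkn2a by 2.39-fold in clusters 5 and 6. Of the pocket protein and E2F genes 6 of 12 were higher in cluster 2, led by E2f8 (8.22-fold) and Tfdp1 (2.22-fold), and 10 of 13 in clusters 5 and 6, led by E2f8 (25.2-fold), E2f7 (18.6-fold) and E2f1 (11.2-fold). Rb1 was lower in cluster 2 (27.5 against 52.6) and higher in clusters 5 and 6 (9.96 against 6.54). The ubiquitin ligase subunit Skp2 and its cofactor Cks1b, which mark p27 for destruction, were higher in cluster 2 by 2.27- and 2.18-fold and in clusters 5 and 6 by 4.23- and 6.13-fold. Dissociation stress genes were lower in cluster 2 in 8 of 10 cases, Fos at 6561.0 against 10344.2 among them. In clusters 5 and 6, 2 of 10 were lower, and 5 of 10 with TMM scaling. Among markers of other cell types, 1 of 3 basal genes was lower in each comparison. The 1 endothelial gene compared was higher in cluster 2 and the 1 fibroblast gene compared was lower in clusters 5 and 6. The part of these in the member values was not tested.

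With TMM scaling the log2 values fell by 0.08 in cluster 2 and by 0.13 in clusters 5 and 6. The calls over all genes went from 1176 higher and 1143 lower to 937 and 1460 (50.7% to 39.1% higher), and from 1946 and 1154 to 1428 and 1723 (62.8% to 45.3% higher). Cdkn2c in both (1.40 and 0.81), Cdk4 in clusters 5 and 6 (0.63) and Cdk6 in cluster 2 (-0.67) were called on that scale, and Ccnd3 (0.58 and 0.52), Cdk4 in cluster 2 (0.54) and Ccnd1 (0.46) were not. Of the partners, 7 of 13 pocket protein and E2F genes were then called higher in clusters 5 and 6, Rb1 (0.47) no longer among them, and 5 of 12 in cluster 2, where 14 of 16 S phase and mitosis genes were.

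Cluster 11, an ML cluster with 2863 WT and 670 V943R cells, was lower in Cdkn1a than the other ML clusters together, with the other members not called. Cdkn1a was at 155, 146, 199 and 180 UPM (WT A, WT B, V943R A, V943R B) against 279 in the other ML clusters, a 1.76-fold lower level with a log2 difference of -0.82 (-0.89 to -0.75, -0.91 to -0.47 across libraries). It was the member called there, 1 of 9 lower and none higher, against 8.38% and 3.70% of 16358 genes. Ccnd1 was at 320 against 458 (1.43-fold lower, below the fold), Ccnd3 at 55.9 against 72.7, Cdk4 at 312 against 353, and Cdkn2c at 41.7 against 38.9. The other ML clusters include the cycling clusters 5 and 6, and in clusters 4, 7, 8, 9 and 10 without them Cdkn1a was at 288, Ccnd1 at 413, Ccnd3 at 64.7 and Cdk4 at 307. Cluster 9 was at 187 for Cdkn1a (145 to 217 across libraries), which overlapped cluster 11. Cluster 10 lay lower than cluster 11 in Ccnd1 (255) and Cdk4 (261). All 16 S phase and mitosis genes and all 5 E- and A-type cyclin and kinase genes were lower than in the other ML clusters together. Clusters 5 and 6, called cycling by Mki67, were part of that set, so this outcome was largely settled by the choice. It does not place cluster 11 among the non-cycling ML clusters. Of 12 p53 targets 4 were lower, Gdf15 (3.65-fold), Perp (1.92-fold), Ccng1 (1.62-fold) and Phlda3 (1.60-fold). Cdkn2a (4.15 against 9.14) and Cdkn2b (1.95 against 4.21) were lower as well. Among markers of other cell types, 1 of 3 basal genes and the 1 fibroblast gene compared were called higher and 1 of 2 immune genes lower. Neither of 2 endothelial genes was called, and 1 of 10 dissociation stress genes was higher. The part of these in the result was not tested. Without WT library A, Ccnd1 (-0.61), Ccnd2 (-1.88) and Cdk6 (-1.53) were also called lower, and without WT library B Cdkn1c was called higher (0.68), with Ccnd2, Cdk6 and Cdkn1c at 5, 23 and 20 UMIs in cluster 11 over all libraries.

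Between genotypes the members differed little. Over all cells the log2 ratio of V943R over WT was between -0.06 and 0.17 for 8 of the 9 members, and Ccnd2 was the exception at 1.14. A gene was called between genotypes when both libraries of a pool lay beyond both of the other pool at a fold of 1.5 and at least 50 UMIs, and 1 member was called higher and none lower, against 3.23% and 1.17% of 16450 genes. With 1 pool per genotype, differences between animals and between genotypes cannot be told apart. The targeted gene, Erbb3, was at 62.1 UPM in WT and 30.4 in V943R cells (2.05-fold lower), a level of message that does not by itself show the substitution. The paper reports a smaller decrease of Erbb3 message in the mutant sample, and the reason for the gap was not tested.

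Ccnd1 was at 474 and 504 UPM in WT and at 510 and 543 in V943R libraries (log2 0.11, 0.08 to 0.13), without overlap. Held at the cluster mix of WT cells the difference was 0.01. By class it was -0.06 in LP (867 and 912 against 841 and 861), 0.06 in LI (549 and 502 against 519 and 577) and 0.12 in ML cells (406 and 444 against 450 and 475). Single clusters of LP and of ML cells lay on both sides of 0. Cdk6 was at 16.8 and 17.0 against 18.1 and 19.9 (log2 0.17, 0.06 to 0.29), and -0.06 at the WT cluster mix. Cdkn1a was at 227 and 229 against 239 and 243 (log2 0.08), with 0.13 in ML and 0.19 in LI cells, both without overlap, and -0.31 in LP cells, where the libraries overlapped (64.9 and 84.3 against 70.6 and 52.4). Cluster 11, low in Cdkn1a, held 670 V943R and 2863 WT cells, so the mix of ML clusters differed, and its part in the ML value was not tested. Inside cluster 11 Cdkn1a was at 155 and 146 in WT and at 199 and 180 in V943R libraries (log2 0.32, 0.16 to 0.47). Within single clusters the Cdkn1a ratio had a median of 0.07 (-0.35 to 0.32), above 0 in 8 of 12 clusters and below 0 in 4. The libraries were apart and higher in V943R cells in 5 of these clusters and lower in 1.

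Cdk4 was below WT in V943R cells in 12 of the 12 clusters in which it had 50 UMIs, by a median of -0.08 on the log2 scale and between -0.17 and -0.01, and in 5 of these the libraries did not overlap. Of 762 genes with 50 UMIs in the same clusters, 7.48% were below WT and 8.01% above WT in all of them, and 33.3% had libraries apart and lower in at least as many, and all clusters share the same 2 pools. None of the Cdk4 differences reached the fold. Ccnd3 (68.7 and 67.4 against 66.5 and 67.5), Cdkn1b (35.6 and 41.0 against 36.7 and 40.9), Cdkn1c (1.60 and 1.82 against 1.67 and 1.88) and Cdkn2c (43.4 and 45.3 against 42.9 and 45.7) overlapped between genotypes. Within single clusters 69 pairs of member and cluster could be compared and 1 was called, Ccnd1 higher in the immune-marked cluster 13 (204 and 268 against 334 and 458, from 67 and 93 UMIs, and not called under 5 of 10 alternatives, without WT library A at 0.56, without V943R library B at 0.42, with the mean over cells at 0.12, without the cells of most UMIs at 0.51 and without the highest doublet scores at 0.40), against 2.38% higher and 1.45% lower of 99601 pairs of gene and cluster. The libraries did not overlap in 11 pairs of member and cluster in each direction, against 21.5% higher and 22% lower of the same pairs of gene and cluster. In LP and LI cells no member was called in either direction, against 2.23% and 0.606% of genes in LP and 2.83% and 1.03% in LI cells. There Ccnd2 and Cdkn1c had under 50 UMIs in each genotype and could not be called, and at a minimum of 20 UMIs Ccnd2 was called higher in both classes. Those calls include single cells rich in Ccnd2, described below. In ML cells Ccnd2 was called higher, against 2.86% and 1.57%. Among markers of other cell types in the ML cells, the antigen-presentation gene Cd74 was called higher in V943R cells (4.20 against 2.29 UPM) and the fibroblast gene Dcn lower (3.94 against 13.6). The 5 immune markers summed to at most 3.81 UPM in the WT libraries and to 5.84 and 4.51 in the V943R libraries, and the 4 fibroblast markers to 15.0 and 13.8 against 5.43 and 4.26, with none of the genes at 0. Their part in the Ccnd2 value was not tested.

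**Figure D5:**
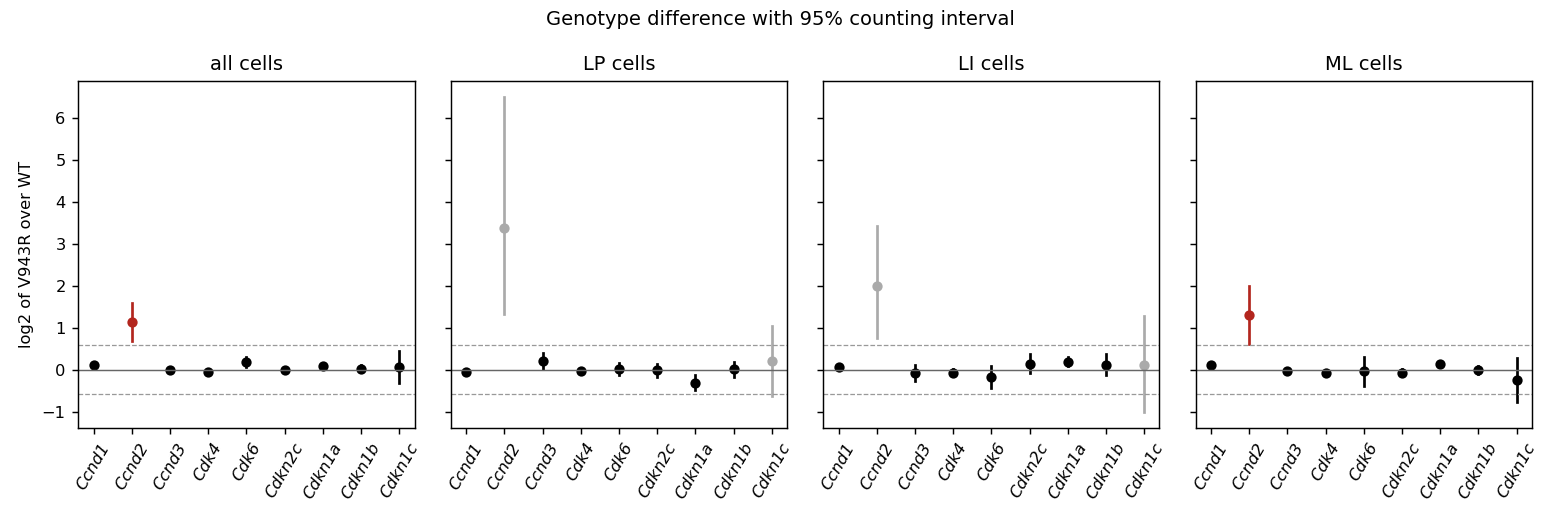
Log2 ratio of V943R over WT for each member over all cells and in LP, LI and ML cells. Points are the ratio of the summed libraries, bars its 95% counting interval and dashed lines a fold of 1.5. Red marks a called difference and grey a gene with under 50 UMIs in both genotypes. Ccnd2 is called over all cells (1.14) and in ML cells (1.29).

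Of the Ccnd2 UMIs in V943R cells, many came from 5 cells. Over all cells Ccnd2 was at 0.912 and 0.868 UPM in WT and at 1.80 and 2.10 in V943R libraries, from 65 and 122 UMIs. In ML cells it was at 0.589 and 0.439 against 1.23 and 1.26 (log2 1.29, 0.62 to 1.99), in LI cells at 0.946 against 3.74 from 7 and 29 UMIs, and in LP cells at 0.235 against 2.42 from 2 and 21 UMIs (log2 3.37, 1.33 to 6.50). Of the 122 V943R UMIs, 57 came from 5 cells with 15, 12, 11, 10 and 9 UMIs, in clusters 3 and 6 of V943R library A and 2, 3 and 6 of V943R library B, whereas no WT cell had more than 4. Without those 5 cells, an alternative chosen after the values were seen, V943R cells had 65 UMIs or 1.04 UPM (0.804 to 1.33) against 0.889 (0.686 to 1.13) in WT cells, a log2 ratio of 0.23, and 0.41 in ML cells, and neither was called. In clusters 1 to 11 alone, also chosen after the values were seen, it was still called without them, at 0.572 and 0.477 in WT and 0.636 and 0.962 in V943R libraries from 38 and 50 UMIs (1.54-fold, log2 0.62), at the minimum of 50 UMIs and with an interval that held 0 (-0.01 to 1.27). Over all cells the ratio was 0.47 and not called without the cycling clusters 2, 5 and 6, and 1.72 without the rare clusters 12 and 13. In ML cells the call was also lost without V943R library A (1.31) or V943R library B (1.27), which left under 50 UMIs in each genotype, and came to 0.02 without clusters 5 and 6. Without the cells of most UMIs (1.03) or of the highest doublet scores (0.99) it was not called either.

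Other genes of these 5 cells were chosen after their values were seen. Together they held 41 of the 60 UMIs of Mt4, a metallothionein of stratified epithelium, in all cells (68.3%), 9 of 28 of the hair-follicle keratin Krt28, 24 of 168 of the basal keratin Krt5 and 83 of 19591 of Lgals7. Lgals7 was found in 5 of the 5 cells and Mt4, Krt28 and Krt5 in 3 each. Ptprc, Col1a1 and Acta2 were at 0 in all 5, and 2 of them also lacked Epcam and Krt18. In LP, LI and ML cells of the 4 libraries the summed basal markers were at 13.2 to 52.9 UPM.

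Other genes of the pathway were called between genotypes in small numbers, as were genes in general. Over all cells 3.23% of 16450 genes were called higher and 1.17% lower, and in ML cells 2.86% and 1.57% of 15157. Ccne2, a cyclin of the G1 to S step, was higher in V943R cells (7.74 against 5.12 UPM, 1.51-fold, and 7.69 against 4.53 in ML cells, 1.70-fold), 1 of 5 genes in its list. Over all cells (log2 0.60) it was not called with TMM scaling (0.56). Sgk1, a kinase that restrains FOXO factors, was at 210 against 134 (1.57-fold), with 0 of the other 4 genes of its list called. No gene was called among 13 pocket protein and E2F genes, 12 p53 targets, 16 S phase and mitosis genes, 9 turnover genes or 3 INK4 genes over all cells, whose median log2 values were 0.15, 0.09, 0.14, 0.03 and -0.05 against 0.02 for all genes. Beside these, the 10 dissociation stress genes had a median of -0.27 with none called, Fos at 6038.1 against 7151.8 and Jun at 3689.4 against 4615.4, and the part of dissociation in the genotype values was not tested.

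Over the 11 luminal clusters the genes whose level was most like that of each member were sought among 11677 genes with at least 500 UMIs, as a description over clusters that share libraries and depth. Pearson's r on the log2 scale was 0.99 for Cdk6 with Efna5, Ncs1 and Cavin2, for Cdk4 with Akip1, Dtd2 and Fkbp4, and for Cdkn1a with Plaur, followed by the p53 target Bax and by Tspan13 at 0.98. Ccnd1 was most like Acp5 (0.97), Pdlim1 and Sept11 (0.96 each), Ccnd3 like Tomm40, Mthfd2 (0.97 each) and Nans (0.96), Cdkn1b like Med1 (0.97), Nfia and Gm16005 (0.94 each), and Cdkn2c like Bckdk (0.98), Med4 and Dnajc19-ps (0.97 each). Gm16005 had 0.54 and 0.60 within WT and V943R libraries. Among the members themselves Cdk4 and Cdkn2c were closest (0.90), followed by Ccnd1 and Cdkn2c (0.83), whereas Cdkn1a ran against Cdk6 (-0.80). Ccnd2 and Cdkn1c had too few UMIs to be included.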

How the data were processed

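Sorted luminal cells of 3 pooled mice per genotype were profiled by 10x Chromium 3′ sequencing, 2 libraries per pool, and 32439 cells with 52636 genes were analysed. The values the authors deposited are a signal, UMIs of each cell multiplied by 1 factor per cell, with cluster, class and library as rows. The submitters' processing notes name CASAVA 1.8, bcl2fastq 2.20, GSNAP and GRCm38, and the methods name Partek Flow with Seurat clustering at a resolution of 0.6. Use of strand in counting and the filters on cells are not given in the sources used here. Whole UMIs were recovered by dividing each cell by its smallest value (largest distance from a whole number 0.00989, tolerance 0.02, 100% of values within it). UMIs were then summed per library and cluster and divided by the total, without a filter on cells.

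A pool is 1 sample, so no test was run, and exact 95% intervals cover counting error only. Calls needed a fold of 1.5 and 50 UMIs, with both libraries of a genotype beyond both of the other or, between clusters, the same direction in all 4 libraries. A group at 0 was set to 3 counts. The members, lists and rules were chosen with earlier results of these data known. Named were all members, at most 4 genes per list and direction with the largest called fold, and the 3 genes most like each member by Pearson's r of log2 levels with a pseudocount of 0.5. Alternatives were TMM scaling, the mean over cells, other folds and minimums, leaving out each library, the 10% of cells with fewest or most UMIs, the 6% with the highest doublet score, the cycling or rare clusters or cluster 11, the WT cluster mix, and thinning. Scrublet, in scanpy 1.11.5, called 1 cell (0.00308%), so it was not used as a filter, and the highest scores were left out as an alternative instead. The procedure was tested on simulated data for V943R against WT over all cells, with 200 of 52636 genes changed. It recovered 100% of those changed by a fold of 2, 3 or 0.5 and called 81 of 16080 unchanged genes. The simulated counts were Poisson around the WT levels, with no variation between animals, pools or cells. Only genes with at least 200 expected UMIs in WT library A were changed. The rates therefore do not cover differences between pools or a gene such as Ccnd2, at 65 and 122 UMIs. Python 3.11.15, numpy 2.4.6, scipy 1.17.1 and pandas 2.3.3 were used. Gene positions are from GENCODE vM21, which matched 52403 gene IDs.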

Additional observations from a re-analysis of the deposited data

Results flagged for a closer look

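Summed over a class, Ccnd1 lay in opposite directions between genotypes in 2 classes, but the single clusters of neither class shared a direction. The log2 ratio of V943R over WT was -0.06 in LP cells, where both V943R libraries (841 and 861 UMIs per 1000000) were below both WT libraries (867 and 912), and 0.12 in ML cells, where both (450 and 475) were above (406 and 444). Neither reached the fold of 1.5, and the difference between the classes was not tested. Of the LP clusters, cluster 1 was at -0.10 and cluster 2 at 0.04, each with libraries apart. Of the ML clusters, cluster 11 was at -0.19 with libraries apart and clusters 6 and 7 were at -0.01 and -0.02. The remaining ML clusters were at 0.05 to 0.15. At the cluster mix of WT cells the ML value was 0.03, and the 2 libraries of each genotype differed by 0.09 on the log2 scale over all cells. No group held the 4 samples needed to look for a sample far from the others.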

How the results depend on the processing

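No paired analysis was possible because the library codes of the table carry no replicate number, and each genotype is 1 pool. Of 173 alternatives of the 18 called member values, single clusters included, 145 kept the call, 28 fell short of the rule and none changed sign. Changes of sign were not counted for values that were not called, and Cdk6 over all cells changed sign at the WT cluster mix. Of all 1945 member values under alternatives, 1820 kept their call or, if not called, moved by less than their spread. Of the rest, 90 moved by more without a call and 7 newly met the rule. The 6 calls between LP and ML cells became 5 without the 10% of cells with fewest UMIs (Cdkn1b lost). They numbered 6 without any 1 library, with the mean over cells, without the cells of most UMIs or highest doublet scores, and with TMM scaling, where Ccnd3 took the place of Cdkn1b. They numbered 6 or 5 at a minimum of 20 or 200 UMIs, 8 or 3 at a fold of 5/4 or 2, and 7 without the rule on libraries. The genotype count over all cells went from 1 to 0 without clusters 2, 5 and 6 and to 0 without the Ccnd2-high cells (but stayed 1 when clusters 12 and 13 were left out with them), and within classes from 1 to 0 under both of these, without the 10% of cells with most UMIs (log2 still 1.03), and without the 6% with the highest doublet score (0.99). At a minimum of 200 UMIs the count was 0 over all cells and in ML cells, and at a minimum of 20 it gained Ccnd2 in LP and in LI cells, with the Ccnd2-high cells kept in. Within clusters it went from 1 to 0 with the mean over cells and without the 10% with most UMIs, and without the highest doublet scores Ccnd1 in cluster 13 was lost and Cdkn1a in cluster 2 gained. Leaving out a library gave 0 to 1 within classes and within clusters, and 1 to 4 for cluster 11, for which the mean over cells gave 2. The 8 calls in cycling clusters became 4 with TMM scaling and 5 without the 10% of cells with fewest UMIs (Cdk4, Ccnd3 and Cdk6 in cluster 2 lost). A fold of 2 left 6 of 17 member calls. Without thinning 6 members, not 3, were seen in over 10% of cells. The Ccnd1 share of cyclin UMIs was 87.2% in WT library A and 88.6% in V943R library B, and the Cdkn1a share of inhibitor UMIs 72.2% in WT library B and 74.6% in V943R library A. The causes were not tested.

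Gene counts followed the rule. With a minimum of 20 or 200 UMIs the calls between genotypes went from 725 to 1371 or 216 over all cells, from 318 to 845 or 46 in LP, from 406 to 965 or 84 in LI and from 672 to 1298 or 200 in ML cells, and a minimum of 200 took cluster 2 from 2319 to 1346. With a fold of 5/4 or 2 they were 2716 or 108, 1360 or 28, 1649 or 52 and 2556 or 113 between genotypes, 4203 or 917 in cluster 2, 5703 or 1334 in clusters 5 and 6 (3100) and 3580 or 967 in cluster 11 (1975), and a fold of 2 left 4086 of 6762 between LP and ML cells. The intervals leave out variation between animals, and Ccnd2 and Cdkn1c, at 187 and 236 UMIs in all, allowed no comparison within single luminal clusters.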

Other observations

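Some genes of the fixed lists differed in comparisons not described above, and these are given as values. In LI cells 3 of 15 S phase and mitosis genes were called higher in V943R cells, against 2.83% higher and 1.03% lower of 10525 genes, among them Mki67 (13.8 against 8.38 UMIs per 1000000, 1.64-fold), beside the basal gene Acta2 (1.84-fold), the luminal gene Krt8 (1017.7 against 673) and the stress gene Hspa1b (27.1 against 16.2), whose part was not tested, as was that of doublet scores, among the highest 6% in 48.9% of LI cells. Sgk1 was at 171 against 107 (1.59-fold). Erbb3 was lower in V943R cells of each class, at 36.8 against 67.3 in LP, 38.4 against 71.5 in LI and 27.9 against 60.2 in ML cells. Meg3 was at 1.62 in V943R and 0.972 in WT cells (1.67-fold).

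In cluster 11 the EGFR ligand Areg was at 1995.6 against 4331.0 in the other ML clusters and the imprinted RNA H19 at 4.06 against 19.6, whereas the hormone-induced ligand Wnt4 was higher, at 134 against 88.2. In clusters 5 and 6 Prlr was 1.96-fold lower than in clusters 4, 7, 8, 9 and 10.

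Without the cells of the highest doublet scores, Cdkn1a was called lower in V943R cells of cluster 2 (log2 -0.71). The 2 libraries of a genotype differed for Cdkn1b by 0.20 in WT and 0.15 in V943R cells on the log2 scale, more than the genotype difference of 0.02.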
